A study of Mus musculus with 16 samples.

Results

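The p53 pathway genes examined here were 9 of the 23356 genes in the tables, chosen by symbol: Mdm2, Cdkn1a, Ccng1, Eda2r, Trp53inp1, Gtse1, Zmat3, Phlda3 and Trp53. They were followed in mouse NIH3T3 fibroblasts, an established line, with stable expression of DD-sfGFP, a destabilizing domain derived from FKBP12 joined to superfolder GFP. The line was a sorted population with a high level of the fusion protein, and according to the study's methods it was cultured with Shield-1, the ligand that keeps the domain folded. All groups carried the fusion gene. The control group was harvested at 0 min without stress, and 3 groups were harvested after 45, 135 and 405 min of proteasome inhibition with bortezomib. Each group had 4 libraries. No dose is given in the labels, and no vehicle-treated cells of the same times were analysed here, so drug and elapsed time cannot be told apart. Nothing states that the replicates came from separate cultures, so p-values measure the spread between these libraries, which may be technical.

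The transcription factor p53, encoded by Trp53, is made continuously and destroyed by the proteasome after the ubiquitin ligase Mdm2 has marked it. Mdm2 is itself a transcriptional target of p53, which closes a negative feedback loop. Other targets halt the cell cycle (Cdkn1a, the cyclin-dependent kinase inhibitor p21), act on p53 or on phosphatases (Ccng1, cyclin G1), favour p53 phosphorylation (Trp53inp1), signal at the membrane (Eda2r, a receptor for ectodysplasin A2), restrain Akt (Phlda3) or bind RNA (Zmat3). Gtse1 encodes a microtubule-binding protein of the G2 and S phases that binds p53 and moves it out of the nucleus.

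The libraries fell into 2 classes by the share of fragments in genes whose symbols begin like those of ribosomal proteins, 97 genes in all, and the cause of the classes was not tested. In 7 libraries this share was over 4% (4.25 to 9.42%), and in the other 9 it was 0.398 to 1.21%. The class over 4% held replicates 1 and 2 at 45 min, replicates 1 and 2 at 135 min and replicates 1, 3 and 4 at 405 min. The class of at most 4% held all 4 controls and the remaining treated libraries. Depth was 1.39 to 19.9 M fragments in the first class and 0.570 to 1.47 M in the second. Of 10 fibroblast markers, the summed level, per M fragments of all genes without scaling (CPM), was 3443 to 21598 in the class over 4% and 267 to 1629 in the controls. Olfactory and vomeronasal receptor genes, which fibroblasts are not known to use, held 0.0053 to 2.61% of fragments in the class over 4% and 4.14 to 5.12% in the others. The summed level of 7 markers of other cell types was 0.979 to 96.0 CPM in the class over 4% and 186 to 276 CPM in the controls, and each of these markers had a fragment in at least 1 library of either class. Since no control library was in the class over 4%, treatment and class cannot be told apart there, and for the 9 genes values within the class of at most 4% follow those of all libraries. In bulk RNA, fewer cells of a type and less RNA per cell cannot be told apart either.

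Promoter windows of 7 of the 9 genes were present in the RefSeq table for build GRCm38.p6, from 250 bases before to 50 bases after each start site. A p53 response element is built from pairs of a 10-base half-site. A half-site that matched the p53 consensus without a mismatch on either strand was found for Mdm2, Cdkn1a, Ccng1, Gtse1 and Trp53, 5 of 7, and was not found in these windows for Eda2r and Phlda3. Of 27025 genes with a window, 9.55% had one, and of their 32851 windows 8.36% did. The 250 bases before the start are shown for Mdm2, Cdkn1a and Ccng1, with the matches in capitals:
Mdm2 promoter, chr10:117710759-117711008, minus strand: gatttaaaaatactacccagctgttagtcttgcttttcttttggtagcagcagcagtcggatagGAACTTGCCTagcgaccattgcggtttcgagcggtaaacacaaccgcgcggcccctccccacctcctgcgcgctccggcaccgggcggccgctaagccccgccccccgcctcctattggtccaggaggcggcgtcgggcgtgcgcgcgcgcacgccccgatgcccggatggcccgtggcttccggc
Cdkn1a promoter, chr17:29090729-29090978, plus strand: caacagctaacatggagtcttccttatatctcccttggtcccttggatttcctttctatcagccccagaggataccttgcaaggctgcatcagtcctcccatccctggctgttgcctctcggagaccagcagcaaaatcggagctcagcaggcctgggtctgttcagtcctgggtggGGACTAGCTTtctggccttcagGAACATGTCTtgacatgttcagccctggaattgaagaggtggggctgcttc
Ccng1 promoter, chr11:40755287-40755536, minus strand: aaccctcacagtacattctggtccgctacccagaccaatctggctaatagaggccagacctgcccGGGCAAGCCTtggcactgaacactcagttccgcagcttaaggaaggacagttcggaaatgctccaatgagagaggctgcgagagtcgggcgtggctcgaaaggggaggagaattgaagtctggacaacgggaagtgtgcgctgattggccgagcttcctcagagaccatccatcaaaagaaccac
The Cdkn1a sequence held 2 matches, at -73 and -51 from the start site, and the window of its second listed start held none. Mdm2 had GAACTTGCCT at -186, and Ccng1 had GGGCAAGCCT at -185. The match in the second Gtse1 window was GGGCTTGCCT at 10 bases past the start, and that of Trp53 was GGACTTGCCC at -75. These matches describe the sequence and were not measured as binding.

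All 9 genes had at least 1 fragment in every library, and so were among the 5030 genes tested. Unless stated otherwise, levels are given as CPM, each gene's count per M fragments that fell in tested genes, with TMM factors applied. No p53 pathway gene was called in any comparison by edgeR's quasi-likelihood test at an adjusted p under 0.05, and among all tested genes 0% were called. The lowest adjusted p of the 9 was 0.38, 0.51 and 0.28 in order of time. Where the unadjusted p was under 0.05, 1 of the 9 was higher than control at 45 min (Ccng1), 4 at 135 min (Mdm2, Ccng1, Eda2r and Gtse1) and 6 at 405 min (these 4, Cdkn1a and Trp53inp1). The corresponding shares of all tested genes were 12.1%, 7.83% and 14.5%. Trp53 was the 1 member lower than control at that level, at 135 min, when 68 of 5030 genes were. DESeq2 called 1 member at 45 min (Ccng1), 2 at 135 min (Mdm2 and Ccng1) and 4 at 405 min (Mdm2, Ccng1, Trp53inp1 and Eda2r), where it called 6.56%, 3.44% and 8.03% of all genes. DESeq2 gave no adjusted p for 5, 7 and 2 of the members in these 3 comparisons.

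The median log2 fold change of the 9 genes against control was 0.51, 1.10 and 1.96 in order of time, beside 0.14, 0.16 and 0.11 over all tested genes. The 8 tested fibroblast markers had medians of 3.92, 2.67 and 3.44 in the same comparisons, and their part in the result was not tested. Positive values were fitted for 7, 8 and 9 of the 9 genes, or 7, 8 and 6 when the libraries were scaled on Gapdh, which moved the median of all genes at 405 min to -0.45. Within the class of at most 4% the medians were -0.15, 0.01 and 0.07, with 3, 5 and 6 positive values. At 405 min that class held 1 library only, whose spread was taken from the other groups. The courses of all 9 genes by library and the fitted changes are plotted together with the class of each library.

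**Figure D1:**
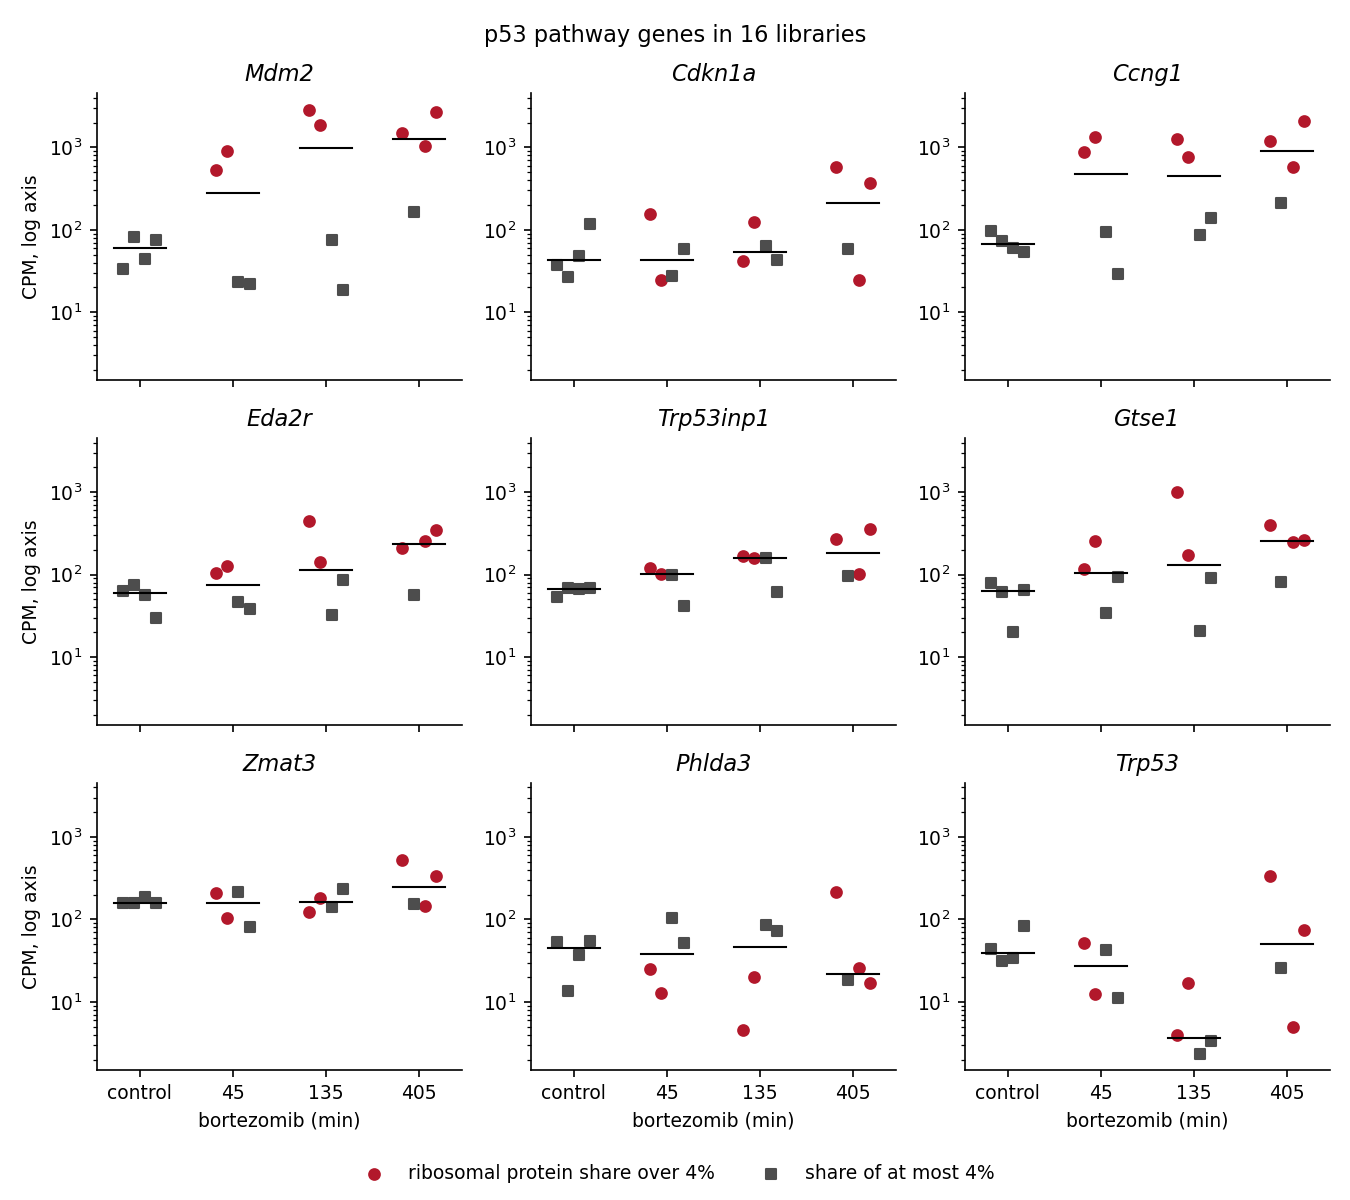
Level of each gene in CPM (log axis) in the 4 libraries of each group, with the group median as a horizontal line, red circles for libraries with a ribosomal protein share over 4% and grey squares for the others. Mdm2 and Ccng1 reach 537 CPM or more in all 7 red libraries and stay at 214 CPM or less in all 9 grey ones, whereas Trp53 is at 16.8 CPM or less in all 4 libraries at 135 min.

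**Figure D2:**
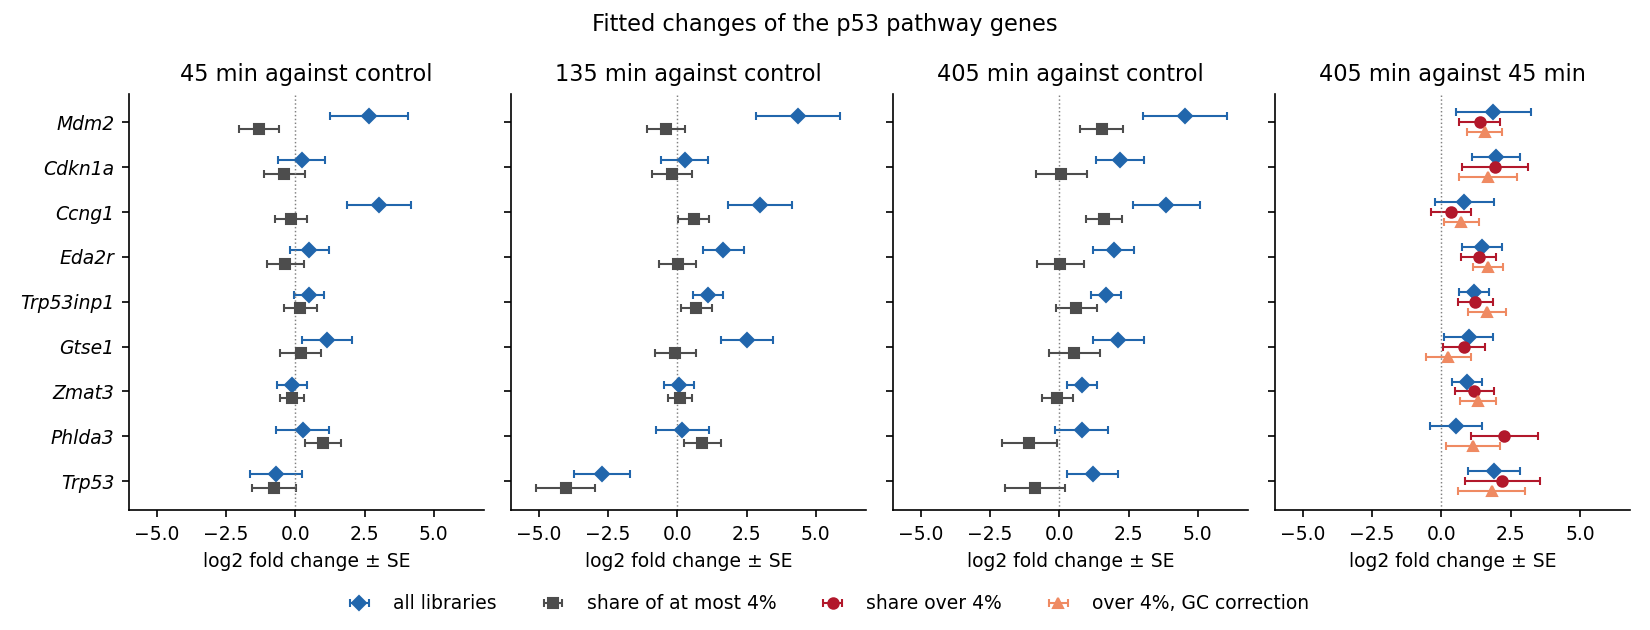
Fitted log2 fold change with its standard error for each gene, against control at 45, 135 and 405 min in all libraries (blue) and in the class of at most 4% (grey), and at 405 against 45 min in all libraries, in the class over 4% (red) and in that class after GC correction (orange). The Mdm2 value at 45 min is 2.67 in all libraries and -1.32 in the class of at most 4%.

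Mdm2 (chr10:117125944-117147814 on mm9, minus strand) had the largest fitted difference from control among the 9 genes at 135 and 405 min. Its level was 33.8, 81.9, 43.8 and 75.0 CPM in control replicates 1 to 4. At 45 min it was 537, 906, 23.1 and 22.2 CPM, at 135 min 2819, 1894, 76.0 and 18.7 CPM, and at 405 min 1513, 166, 1046 and 2720 CPM. At 45 and 135 min the libraries thus formed a high pair and a low pair, and the high pair was the class over 4%. At 405 min all 4 libraries lay above all 4 controls, the lowest of them, at 166 CPM, being the library of at most 4%. The log2 fold change against control was 2.67 ± 1.40 (SE, n = 4), 4.36 ± 1.51 and 4.54 ± 1.52 in order of time, with adjusted p of 0.41, 0.51 and 0.28 by edgeR. With the ribosomal protein share as a covariate it was -1.10 ± 0.55, 0.33 ± 0.57 and 0.51 ± 0.59. Within the class of at most 4% it was -1.32 ± 0.73, -0.41 ± 0.69 and 1.54 ± 0.78, with adjusted p of 0.999, 0.88 and 0.9999. In that class, both 45 min libraries (10 and 24 fragments) lay below all controls (21 to 49 fragments) in CPM. This order was shown by 8.37% of all tested genes.

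Within the class over 4%, Mdm2 was lowest at 45 min. Both 135 min libraries and all 3 405 min libraries were above both 45 min libraries. The log2 fold change was 1.76 ± 0.80 from 45 to 135 min and -0.37 ± 0.70 from 135 to 405 min, and neither was called (adjusted p = 0.997 and 0.95 by edgeR). From 45 to 405 min it was 1.39 ± 0.74 (adjusted p = 0.69). With a correction for GC content the values were 1.85, -0.30 and 1.56. Without 405 min replicate 3, whose ribosomal share of 4.25% lay nearest to the boundary, they were 1.76, -0.13 and 1.63.

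Cdkn1a (chr17:29227924-29237667, plus strand) encodes p21. It was measured at 37.0, 26.7, 48.5 and 117 CPM in the controls, at 155, 24.9, 27.9 and 57.8 CPM at 45 min, and at 41.9, 126, 64.5 and 42.5 CPM at 135 min. At 405 min it was at 584, 58.4, 24.5 and 370 CPM. Replicates 1 and 4 at 405 min thus held the highest levels of the course, while replicate 3 of the same group held the lowest of all 16 libraries. The groups overlapped in every comparison. Its log2 fold change against control was 0.22 ± 0.84, 0.27 ± 0.84 and 2.19 ± 0.87 (adjusted p of 0.90, 0.93 and 0.29 by edgeR). From 135 to 405 min it was 1.91 ± 0.86 in all libraries (unadjusted p = 0.039, adjusted p = 0.997). Within the class of at most 4% Cdkn1a was at 26.7 to 117 CPM, with differences from control of -0.40 ± 0.73, -0.18 ± 0.72 and 0.07 ± 0.92.

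In the class over 4%, the log2 fold change of Cdkn1a was -0.03 ± 1.21 from 45 to 135 min and 1.97 ± 1.19 from 135 to 405 min (adjusted p = 0.998 and 0.91). Depth moved with this result. The 3 libraries of the class with 15.2 to 19.9 M fragments (45 min replicate 1 and 405 min replicates 1 and 4) held 155 to 584 CPM of Cdkn1a, above all 4 libraries with 1.39 to 6.11 M, at 24.5 to 126 CPM. Among the deeper 3, the mean at 405 min was 3.08 times the value at 45 min. Among the other 4, Cdkn1a was 24.9 CPM at 45 min, 83.7 CPM on average at 135 min and 24.5 CPM at 405 min. For Mdm2 the corresponding course was 537 CPM at 45 min and 2116 CPM at 405 min in the deeper libraries, and 906, 2356 and 1046 CPM at 45, 135 and 405 min in the others. Zmat3 and Trp53 were likewise higher in all 3 deeper libraries than in the other 4. In all, 3 of the 9 genes and 15.4% of all tested genes showed this order. The boundary of 10 M fragments was set after the values had been seen, and the part of depth in the differences was not tested.

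Mdm2 and Cdkn1a were also set against each other within each library, as the log2 ratio of their fragments with 0.5 added to each. This ratio does not depend on scaling, but its absolute size reflects transcript length, so only its differences are read, as a description without a test. Cdkn1a transcripts have a GC content of 54.6% and Mdm2 46.2%, so differences between libraries by GC content can enter the ratio. The ratio was not corrected for GC content. It was -0.13, 1.58, -0.14 and -0.63 in control replicates 1 to 4. At 45 min it was 1.79, 5.17, -0.27 and -1.34, at 135 min 6.06, 3.91, 0.23 and -1.15, and at 405 min 1.37, 1.49, 5.38 and 2.88. The group means were 0.17 ± 0.97 (SD, n = 4), 1.34 ± 2.87, 2.26 ± 3.31 and 2.78 ± 1.86 in order of time. The spread within each treated group was thus larger than the steps between them.

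In the 7 libraries over 4% the mean ratio was 3.48 ± 2.39 at 45 min (n = 2), 4.99 ± 1.52 at 135 min (n = 2) and 3.21 ± 2.03 at 405 min (n = 3). An early Mdm2 and a late Cdkn1a would lower the ratio from 45 to 405 min, and the difference of the means was -0.27. Within the deeper 3 libraries the difference was 0.33, and among the other 4, with 1.39 to 6.11 M fragments, it was 0.21. The ratio was 1.37 to 2.88 in the deeper 3 libraries and 3.91 to 6.06 in the other 4, without overlap. At 405 min, the Cdkn1a count alone was 5136, 20 and 3410 fragments in replicates 1, 3 and 4, beside 13298, 855 and 25100 fragments of Mdm2.

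**Figure D3:**
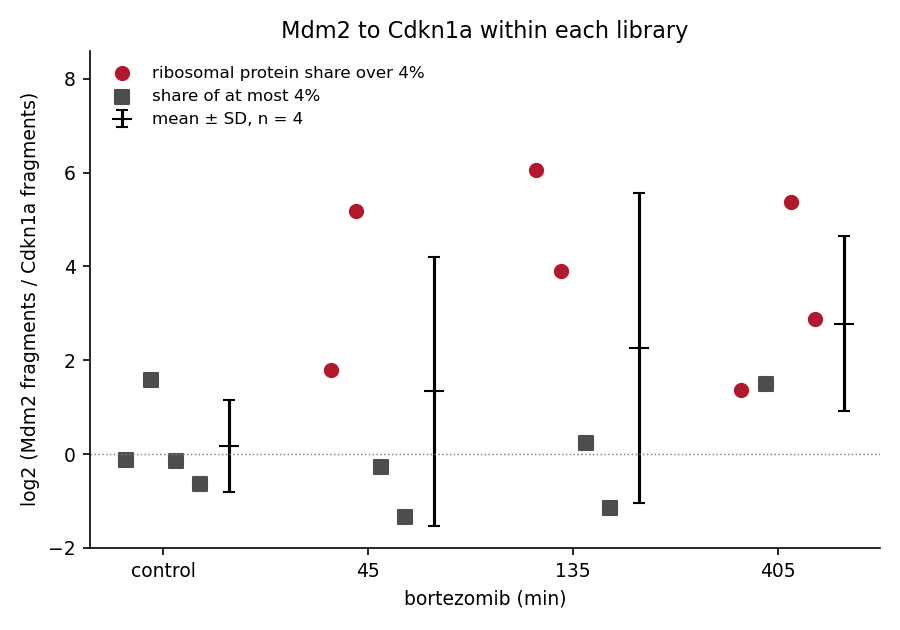
Log2 ratio of Mdm2 to Cdkn1a fragments in each library by time, with red circles for libraries with a ribosomal protein share over 4%, grey squares for the others, and the mean ± SD of each group of 4 beside them. The 45 and 135 min groups are split by class, and at 405 min the values run from 1.37 to 5.38.

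Ccng1 (chr11:40562054-40568813, minus strand), a p53 target with a role in returning cells to a low p53 state, was the member with the lowest unadjusted p at 45 min. Its levels were 96.5, 73.5, 59.4 and 53.3 CPM in the controls, and 870, 1321, 93.2 and 28.9 CPM at 45 min. They were 1264, 771, 87.6 and 138 CPM at 135 min, and 1206, 214, 585 and 2107 CPM at 405 min. As with Mdm2, the 2 highest libraries at 45 and at 135 min were those over 4%, and all 4 libraries at 405 min exceeded all controls. Against control it differed by a log2 fold change of 3.03 ± 1.15, 3.0 ± 1.15 and 3.86 ± 1.20 in order of time (adjusted p of 0.38, 0.51 and 0.28 by edgeR). Within the class of at most 4% it was -0.15 ± 0.57, 0.58 ± 0.56 and 1.62 ± 0.66, the last with an unadjusted p of 0.027 and an adjusted p of 0.9999. With the ribosomal protein share as a covariate the values were 0.36 ± 0.50, 0.75 ± 0.49 and 1.04 ± 0.54. Within the class over 4% Ccng1 differed by 0.34 ± 0.72 from 45 to 405 min. At 405 min it was 1.90 times its 45 min value in the deeper 3 libraries of that class and 0.443 times in the other 4.

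Eda2r (chrX:94529179-94572555, minus strand), a receptor of the tumour necrosis factor receptor family, was at 30.0 to 75.2 CPM in the controls. At 45 min it was at 104, 127, 47.1 and 37.8 CPM, at 135 min at 445, 142, 32.3 and 86.7 CPM, and at 405 min at 211, 56.6, 257 and 349 CPM. Its log2 fold change against control was 0.51 ± 0.72, 1.66 ± 0.73 and 1.96 ± 0.74 (adjusted p of 0.77, 0.51 and 0.28). In the class over 4% every library at 135 and at 405 min was above both at 45 min, and the difference from 45 to 405 min was 1.34 ± 0.64, or 1.68 ± 0.53 with the GC correction (adjusted p = 0.69 and 0.65). The fitted difference from control in the class of at most 4% lay between -0.37 and 0.04.

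Trp53inp1 (chr4:11083578-11101526, plus strand), whose product binds p53-modifying kinases, had the smallest ratio of highest to lowest CPM among the 9 genes in the class over 4%, at 3.52. It was at 53.1 to 68.5 CPM in the controls, at 119, 103, 99.0 and 42.2 CPM at 45 min, at 169, 161, 161 and 61.2 CPM at 135 min, and at 268, 96.7, 102 and 357 CPM at 405 min. All 4 libraries at 405 min exceeded all controls, and 3 of 4 did so at 45 and at 135 min. In this gene the libraries of at most 4% were not the low ones throughout, since replicate 3 at 135 min, of that class, was at 161 CPM. Its fitted difference from control was a log2 fold change of 0.51 ± 0.54, 1.10 ± 0.54 and 1.68 ± 0.55 (adjusted p of 0.71, 0.51 and 0.28), and within the class of at most 4% it was 0.19 ± 0.58, 0.69 ± 0.57 and 0.62 ± 0.73.

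Gtse1 (chr15:85690137-85707002, plus strand) was at 78.8, 61.8, 20.3 and 65.0 CPM in the controls. It stood at 118, 253, 34.6 and 93.3 CPM at 45 min, at 996, 171, 20.7 and 91.8 CPM at 135 min, and at 395, 80.3, 251 and 260 CPM at 405 min. Its highest value belonged to 135 min replicate 1, in which the deposited FPKM of Gtse1 was 358, beside 40.8 in replicate 2 of the same group. Against control, Gtse1 had a log2 fold change of 1.15 ± 0.90, 2.51 ± 0.93 and 2.13 ± 0.92 (adjusted p of 0.60, 0.51 and 0.29). In the class of at most 4% the values were 0.19 ± 0.74, -0.07 ± 0.75 and 0.54 ± 0.92.

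Across the group, then, 4 of the 9 genes (Mdm2, Ccng1, Trp53inp1 and Gtse1) had all 4 libraries at 405 min above all 4 controls, an order shown by 7.48% of all tested genes. None of the 9 did so at 45 or 135 min, where 1.45% and 3.02% of all genes did. Within the class over 4%, Mdm2, Eda2r and Trp53inp1 lay higher in both 135 min libraries than in both 45 min libraries, as did 18.5% of all genes. Mdm2 and Eda2r lay higher in the 3 libraries at 405 min than in the 2 at 45 min, as did 9.76%. No member was higher in all libraries at 405 min than in both at 135 min, an order that 7.53% of genes showed.

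Zmat3 and Phlda3 had no unadjusted p under 0.05 in the 3 comparisons with control. Zmat3 (chr3:32233718-32264600, minus strand), a zinc finger protein that binds RNA, was at 156 to 186 CPM in the controls. It ranged from 80.0 to 214 CPM at 45 min and from 123 to 231 CPM at 135 min, and was at 521, 153, 146 and 335 CPM at 405 min. Its log2 fold change was -0.11 ± 0.54, 0.05 ± 0.54 and 0.82 ± 0.54 (adjusted p of 0.93, 0.98 and 0.43), and within the class of at most 4% it was -0.11 ± 0.44, 0.11 ± 0.44 and -0.071 ± 0.57. Phlda3 (chr1:137662696-137665713, plus strand), which competes with Akt for membrane lipids, was at 13.4 to 55.0 CPM in the controls, 13.0 to 104 CPM at 45 min, 4.58 to 85.3 CPM at 135 min and 214, 18.3, 25.7 and 17.0 CPM at 405 min. The log2 fold change of 0.81 ± 0.95 at 405 min (0.27 ± 0.95 at 45 min and 0.17 ± 0.96 at 135 min) rested on replicate 1, without which it was -0.97. Among libraries of at most 4% the values were 1.0 ± 0.66, 0.90 ± 0.67 and -1.09 ± 0.999, and both 135 min libraries of that class (73.1 and 85.3 CPM) lay above all controls. In the same libraries, 555 of 5030 tested genes showed this order. Without a filter on low counts, the 405 min difference was 1.86 ± 0.88 for Zmat3 (unadjusted p = 0.044, adjusted p = 0.52) and 2.16 ± 1.12 for Phlda3. At 45 and 135 min Phlda3 was lower in the class over 4% (4.58 to 25.2 CPM) than in the treated libraries of at most 4% (51.1 to 104 CPM), the opposite order to that of Mdm2.

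Trp53 itself (chr11:69393861-69405375, plus strand) had its lowest group median at 135 min, at 3.66 CPM. Its level was 43.4, 31.7, 34.4 and 83.3 CPM in the controls, 51.2, 12.6, 42.3 and 11.1 CPM at 45 min, 3.93, 16.8, 2.30 and 3.40 CPM at 135 min, and 334, 25.6, 4.89 and 74.8 CPM at 405 min. All 4 libraries at 135 min lay below all 4 controls, which 3.4% of all tested genes showed. These libraries held 6, 51, 1 and 2 fragments of Trp53, so 3 of the 4 values rest on single-digit counts. Against control, the log2 fold change of Trp53 was -0.70 ± 0.93 at 45 min, -2.72 ± 1.01 at 135 min (unadjusted p = 0.015, adjusted p = 0.51) and 1.20 ± 0.93 at 405 min. Unlike the difference of Mdm2, that of Trp53 at 135 min was as large within the class of at most 4%, at -4.04 ± 1.06 (adjusted p = 0.21). Both 135 min libraries of that class, with 1 and 2 fragments of Trp53, lay below all controls, as they did for 10.8% of all tested genes. The difference of Trp53 in that class was -0.77 ± 0.80 at 45 min and -0.88 ± 1.07 at 405 min. From 135 to 405 min Trp53 differed by 3.92 ± 1.05 in all libraries (unadjusted p = 0.0014, adjusted p = 0.997) and by 3.72 ± 1.49 in the class over 4%, where it was 334 CPM in replicate 1 and 4.89 CPM in replicate 3 at 405 min.

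Levels can be compared between genes per transcript length, on the deposited FPKM. In the class over 4% the median FPKM was highest for Mdm2 (264), followed by Ccng1 (139), Gtse1 (58.2), Cdkn1a (43.8), Eda2r (36.3), Zmat3 (14.2), Trp53inp1 (12.6), Phlda3 (9.50) and Trp53 (6.30). The ranges of neighbours in this order overlapped in every case, for example 69.7 to 541 for Mdm2 and 84.3 to 360 for Ccng1. In the class of at most 4% the order was different, with medians from 25.6 (Phlda3) to 7.69 (Trp53inp1) and Mdm2 seventh at 9.32. There the FPKM of each member was 0.144 to 6.63 times the mean of the receptor genes in the same library, without their highest 5%. In the controls it was 0.486 to 5.05 times that mean, with 0.960 to 2.14 times for Mdm2. In the 405 min library of at most 4%, Mdm2 and Ccng1 were at 3.46 and 3.82 times that mean.

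The GC content of the transcripts was compared as well, since the libraries over 4% differed in it. The difference in log2 level between the fifth of genes with the highest GC content (54.0% or more) and the fifth with the lowest (43.5% or less), each relative to the mean of the class, ran from -0.82 in 45 min replicate 2 to 1.18 in 405 min replicate 1. It was 0.64 and -0.36 in 405 min replicates 3 and 4. Cdkn1a, Gtse1, Trp53 and Phlda3 transcripts have a GC content of 54.6%, 54.7%, 54.0% and 62.6%, and Mdm2 46.2%. After correction, the difference from 45 to 405 min in that class was 1.67 ± 1.05 for Cdkn1a (1.93 ± 1.18 without), 1.82 ± 1.21 for Trp53 (2.20 ± 1.36 without) and 1.15 ± 0.97 for Phlda3 (2.27 ± 1.21 without). It was 1.65 for Trp53inp1, 1.31 for Zmat3, 0.72 for Ccng1 and 0.25 for Gtse1. No member was called in that class with or without the correction.

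Other genes of the pathway were read from 4 lists, and none of their tested members was called by edgeR in any comparison with control. Of 17 regulators of p53, 11 were tested, with a median log2 fold change of 0.89 at 45 min, 0.56 at 135 min and 0.71 at 405 min, and 0 of 11 had an unadjusted p under 0.05. The medians within the class of at most 4% were -0.055, -0.086 and -0.082. At 135 min, 2 of the 11 were lower there at an unadjusted p under 0.05, as were 495 of the 8366 genes in that fit. Mdm4, the partner of Mdm2 in holding p53 inactive, differed from control by -0.26 ± 0.59, 0.24 ± 0.59 and 0.14 ± 0.59. Ppm1d, a phosphatase that is both a target and an inhibitor of p53, was at -0.23 ± 0.70, -0.85 ± 0.71 and -1.37 ± 0.71, and Usp7, which removes ubiquitin from Mdm2 and p53, at 1.46 ± 0.83, 1.35 ± 0.82 and 1.73 ± 0.83. Cdkn2a, whose ARF product inhibits Mdm2 and whose locus NIH3T3 cells are known to have lost, was listed at 0 in all 16 libraries.

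Of 19 further targets in arrest and repair, 6 were tested, with medians of 0.04, 1.13 and 0.998. At an unadjusted p under 0.05, 1 was lower at 45 min (Xpc, at -1.81 ± 0.73), 2 were higher at 135 min (Gadd45a and Polk) and 2 at 405 min (Gadd45a and Ephx1). Of all 5030 tested genes, 39 were lower at that level at 45 min, and 7.83% and 14.5% were higher at 135 and 405 min. In the libraries of at most 4% the medians were -0.64, 0.13 and 0.18, and none of the 6 had an unadjusted p under 0.05. Among them Gadd45a, a stress sensor that binds PCNA, differed from control by 1.97 ± 0.97, 3.55 ± 1.02 and 4.15 ± 1.05 (adjusted p of 0.39, 0.51 and 0.28), or 0.70 ± 0.90, 1.49 ± 0.88 and 2.14 ± 1.04 within the class of at most 4%. Its level was 5.78 to 27.1 CPM in the controls, counted over all genes without scaling, and 59.2 to 436 CPM in the class over 4%. Btg2, Sesn2 and Gdf15 were without a fragment in 1, 3 and 3 libraries and were fitted only without the filter, where the 405 min difference was 0.90 ± 0.96, 2.69 ± 1.54 and 3.03 ± 1.69. Of 10 apoptosis genes, 5 were tested, with medians of -0.19, 0.00 and 0.19, or -0.29, 0.21 and -0.45 within the class of at most 4%. Aen, an exonuclease induced by p53, was higher at an unadjusted p under 0.05 at 135 and 405 min, at 1.38 ± 0.64 and 2.05 ± 0.65. Pmaip1, which encodes the BH3-only protein Noxa, differed by -0.86 ± 0.68, 0.00 ± 0.66 and 0.07 ± 0.67. Without the filter, the 405 min difference was 3.54 ± 1.73 for Bax, -0.54 ± 1.31 for Bbc3 and 2.13 ± 1.46 for Fas (adjusted p of 0.54, 0.97 and 0.88). Of 11 G2 and M phase genes, which p53 represses indirectly, 5 were tested, with medians of 2.60, 2.11 and 1.99 against control in all libraries. Those within the class of at most 4% were -0.51, -0.21 and 0.15, and from 45 to 405 min 0 of 5 were positive in all libraries, with a median of -0.65.

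The genes most like Mdm2 and Cdkn1a were sought over the 7 libraries of the class over 4%, by the mean absolute difference between log2(CPM + 1) values that had been centred on each gene's mean. For Mdm2 these were Polk (0.26), Gadd45a (0.28) and Gclc (0.32), beside a median of 0.95 over all other tested genes. Polk encodes the translesion DNA polymerase kappa and Gclc the catalytic subunit of glutamate-cysteine ligase. For Cdkn1a they were Ubqln1 (0.20), Dync1h1 (0.22) and Hspa8 (0.43), beside a median of 1.56. These encode ubiquilin 1, the heavy chain of cytoplasmic dynein and the constitutive Hsc70 chaperone. Polk, itself on the list of arrest and repair genes, was at 51.2 and 43.4 CPM at 45 min, at 258 and 107 CPM at 135 min and at 106, 74.6 and 180 CPM at 405 min. Ubqln1 was at 211 and 43.7 CPM, 67.4 and 146 CPM, and 908, 26.9 and 556 CPM. Ubqln1, like Cdkn1a, thus had its highest value in replicate 1 and its lowest in replicate 3 of the 405 min group. The 7 points share their depth and composition, so the likeness is a description.

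**Figure D4:**
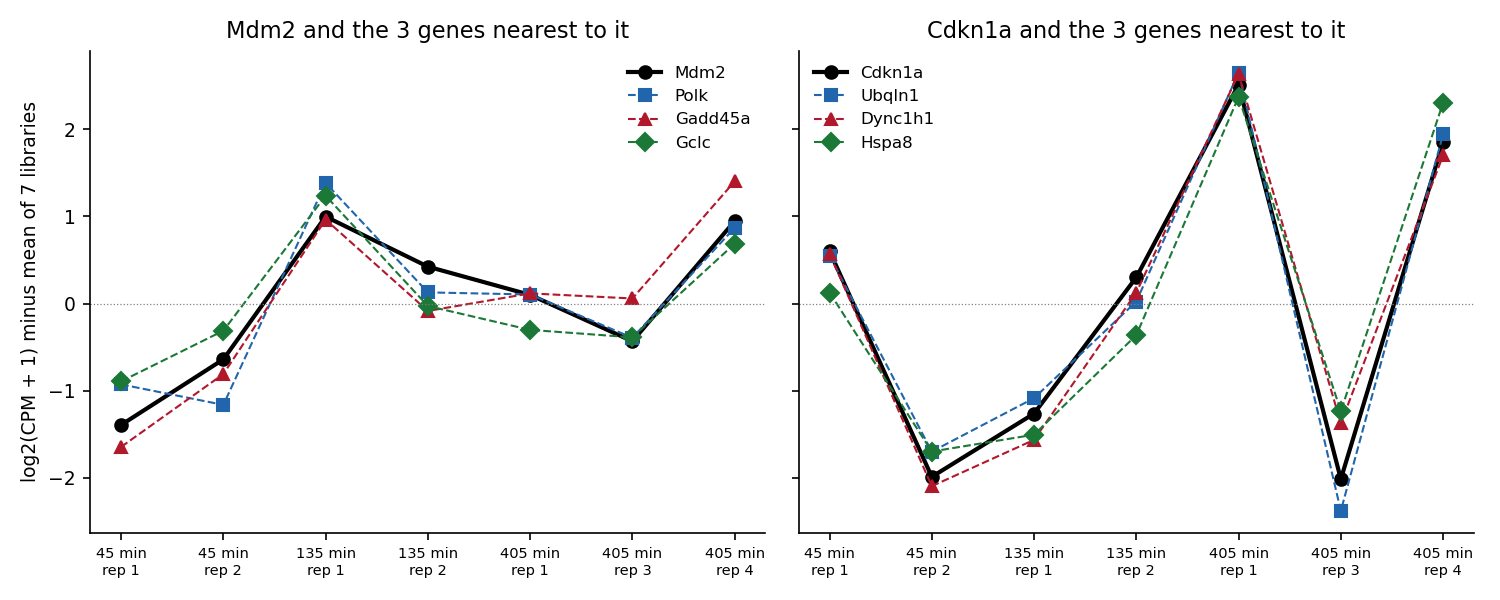
Log2(CPM + 1) minus the mean of the 7 libraries with a ribosomal protein share over 4%, for Mdm2 (left) and Cdkn1a (right, both in black) and for the 3 genes nearest to each (dashed). Mdm2 and each of its neighbours have their lowest value in a 45 min library, whereas Cdkn1a and its neighbours are low in 45 min replicate 2, 135 min replicate 1 and 405 min replicate 3 and high in 405 min replicates 1 and 4.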

How the data were processed

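RNA of 16 NIH3T3 libraries was analysed. Per the labels, total RNA was used with a NuGEN Encore Complete kit; the study's methods also describe poly(A) selection. The methods name mm9 and RefSeq, and the submitters' processing notes name mm10; the aligner is not given in the sources used here. For each library the authors deposited estimated counts (the raw fragments of each gene, 98.4 to 99.8% whole within 0.001, rounded here) and FPKM values, used only to compare genes per length. In 1 table, 27 symbols turned into dates were restored from row order.

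Genes with at least 1 fragment in every library (5030, 21.5%) were fitted with edgeR 4.0.16 (quasi-likelihood, TMM, 1 mean per group, 12 residual degrees of freedom, R 4.3.3), with Benjamini-Hochberg adjustment over all of them and calls at an adjusted p under 0.05. Standard errors are the log2 fold change over the square root of F. DESeq2 1.42.0 was an alternative. Replicate numbers paired the 45 and 135 min libraries in the data (correlation of deviations 0.49 to 0.54 in all 4 pairs, in which replicates 1 and 2 share a class of ribosomal protein share and 3 and 4 the other), not by the labels. In simulated counts with a dispersion of 0.05, changed genes were recovered; at the common dispersion estimated here (a coefficient of variation of 79.1%), none were. Gene positions came from GENCODE M1 (mm9), promoters from RefSeq. Named genes were the 9 members, 12 listed pathway genes and the 3 nearest to Mdm2 and to Cdkn1a. The members and lists were chosen with earlier results of these data known.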

Additional observations from a re-analysis of the deposited data

Results flagged for a closer look

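Each group of 4 libraries was searched for a library far from the other 3, over the 9 genes on the log2(CPM + 1) scale and the Mdm2 to Cdkn1a ratio, by the gap to the nearest of them as a share of the group's range (Dixon's test). Of 40 groups, 4 were marked, where chance marks about 1 in 20. Phlda3 in 405 min replicate 1 was at 7.75, beside 4.17 to 4.74 in the other 3 libraries. Trp53inp1 in 135 min replicate 4 was at 5.96, beside 7.34 to 7.41, and in control replicate 1 at 5.76, beside 6.09 to 6.12. Zmat3 in control replicate 3 was at 7.55, beside 7.29 to 7.30, a small difference in a narrow group.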

How the results depend on the processing

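The count of called members was 0 in all 6 comparisons under every alternative except DESeq2, which called 1, 2 and 4 at 45, 135 and 405 min against control. DESeq2 called 330, 173 and 404 of all genes in those comparisons and 5 at 405 against 45 min. Counts of all genes were otherwise 0 except at 405 min. Against control, filterByExpr and no filter called 1 each and the class of at most 4% called 2. Against 135 min, filterByExpr and the class of at most 4% called 1 and no filter 2. Against 45 min, filterByExpr, no filter, the ribosomal share covariate and the class of at most 4% called 2 each. Neither class alone called a member, nor did the 2 alternatives added after the data had been seen for the class over 4% (GC correction, 1 library left out).

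The sign of a log2 fold change turned as follows; the cause was not tested. Within the class of at most 4%, Mdm2 was -1.32 at 45 min and -0.41 at 135 min, Cdkn1a -0.40 and -0.18, Eda2r -0.37 and Ccng1 -0.15 at 45 min, Gtse1 -0.067 at 135 min, and Phlda3 -1.09, Trp53 -0.88 and Zmat3 -0.071 at 405 min, all against control, and Trp53 -0.11 at 405 against 45 min. With the ribosomal share as a covariate, Mdm2 was -1.10, Cdkn1a -0.42, Eda2r -0.45 and Gtse1 -0.014 at 45 min, and Cdkn1a -0.29 at 135 min. That covariate left Mdm2 at 0.33 and 0.51 at 135 and 405 min, beside 4.36 and 4.54, and Ccng1 at 1.04 at 405 min, beside 3.86. With Gapdh scaling, Phlda3 was -0.44, Trp53 -0.10 and Zmat3 -0.069 at 405 min against control. Zmat3 at 45 min was 0.21 with filterByExpr, 0.22 without a filter and 0.11 with only the 2 groups. For Mdm2 at 405 against 135 min the value was -0.0090 with DESeq2, -0.0091 with RLE factors, -1.39 with Gapdh scaling, -0.37 in the class over 4%, -0.30 there with GC correction and -0.13 there without 405 min replicate 3. For Cdkn1a at 135 against 45 min it was -0.034 in the class over 4%, -0.029 there without 405 min replicate 3, and 0.16 with GC correction.

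Leaving out 1 library at a time turned the sign of these values, given as ranges. Cdkn1a ran from -0.62 to 0.77 at 45 min, from -0.21 to 0.83 at 135 min and from -0.43 to 0.91 at 135 against 45 min. Mdm2 at 405 against 135 min ran from -0.55 to 0.99. Phlda3 ran from -0.46 to 0.58, from -0.33 to 0.59 and from -0.97 to 1.11 in order of time. Trp53 at 405 min ran from -0.43 to 1.52, and Zmat3 from -0.32 to 0.066 at 45 min and from -0.18 to 0.24 at 135 min.

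The difference in the log2 Mdm2 to Cdkn1a ratio from control, 1.17 at 45 min and 2.09 at 135 min, was -0.97 and -0.63 in the class of at most 4%. With 1 library left out at a time, the difference at 45 min against control ran from -0.11 to 2.06. It ran from -0.34 to 2.20 at 135 against 45 min, and from -0.62 to 1.78 at 405 against 135 min. In the remaining comparisons its sign held.

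With the replicate number as a block, 0 genes were called in each of the 6 comparisons. Against control, Cdkn1a at 45 min was then -0.10, and Mdm2 was 1.31 at 45 min and 2.97 at 135 min, beside 2.67 and 4.36. The genes that were higher at an unadjusted p under 0.05 had an unadjusted p of 0.068 at 45 min (Ccng1), 0.051 to 0.098 at 135 min and, for Cdkn1a, 0.076 at 405 min under the block. In the comparisons with control and with 405 min the numbers did not pair the libraries. Of all 24 same-numbered pairs, 14 had a correlation of deviations above 0.1 (-0.76 to 0.60), and 5 of 16 libraries correlated best with their own number. Low counts limit the class of at most 4%, in which members had 1 to 223 fragments. Their FPKM there was 0.144 to 6.63 times the mean of the receptor genes without the highest 5%. Depth largely followed the classes, and only 405 min replicate 3, with 1385229 fragments, lay within the depth range of the other class. Every other library over 4% had at least 3154062 fragments, and no library of at most 4% had more than 1469951. The part of depth in the classes was not tested. In 45 min replicate 3, of at most 4%, 24 of 1469951 fragments fell in Mdm2. In 405 min replicate 3, over 4%, 855 of 1385229 did. The spread within groups, a coefficient of variation of 79.1%, limits the test. It includes the difference between the classes, since every treated group holds libraries of both.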
